A study of Danio rerio with 3 samples.

Results

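The complement system is a set of secreted proteins that mark, lyse and clear microbes and cell debris. In the classical pathway, the recognition molecule C1q is built from the chains encoded by *c1qa*, *c1qb* and *c1qc*, and its binding leads to the cleavage of C4. Factor D (*cfd*) is the protease that cuts factor B (*cfb*) in the alternative pathway, and C6 is a component of the membrane attack complex that forms at the end of both routes. In mammals, most circulating complement proteins are made in the liver, whereas C1q comes mainly from macrophages and microglia, where it also takes part in the tagging of synapses and debris.

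Expression of these genes was followed in scRNA-seq data of the trunk tissue around a spinal lesion in larval zebrafish. The members were all matrix rows with the gene symbol *c1qa*, *c1qb*, *c1qc*, *c4b*, *c6*, *cfd* or *cfb*, which gave 8 of the 32521 rows. The symbol *c6* stands for 2 rows, *c6.1* (ENSDARG00000093052) and *c6.2* (ENSDARG00000057113), which are given separately. Larvae had been lesioned at 3 days post-fertilization and tissue was taken 1 day later from 50 larvae per sample. gControl larvae had received a control gRNA, and gSema4ab larvae had received highly active CrRNAs (haCRs) against *sema4ab*, a semaphorin gene; both agents were injected with Cas9 into embryos at the start of development, so that gSema4ab larvae are mosaic somatic mutants and not a line. Viable cells were sorted from the dissociated trunk tissue of both groups. All larvae carried the lesion, and an unlesioned group was not analysed here. There was 1 gControl library, and there were 2 gSema4ab libraries (gSema4abR1 and gSema4abR2), which are technical repeats. The study names 50 *sema4ab* haCR-injected larvae in its results, but 50 larvae per sample in its methods. Whether the repeats came from 1 pool of larvae or from separate pools is therefore not clear. A difference between them may or may not include a difference between larvae. With 1 gControl library and technical repeats, no p-values are given.

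After filtering, 12247 gControl, 12079 gSema4abR1 and 11940 gSema4abR2 cells remained, with a median of 7200, 6495 and 6731 unique molecular identifiers (UMIs, each marking 1 captured mRNA molecule). Levels are UMIs summed over the cells of a group and library, given as counts per 1000000 UMIs that those cells held in all (CPM), with exact Poisson intervals of 95%. Ratios are log2 of gSema4ab, both repeats summed, over gControl, with exact conditional binomial intervals of 95%. The intervals cover counting error only, and neither the spread between cells nor that between larvae. *sema4ab* itself was at 51.4 CPM in gControl, 29.0 CPM in gSema4abR1 and 30.5 CPM in gSema4abR2 over all cells, and at 296, 114 and 142 CPM in macrophages. These mRNA levels do not measure how far the gene was disrupted. The study reported that none of its gSema4ab reads over the target site was intact. Pairs of libraries shared 34 to 44 cell barcodes, at most 0.37% of the smaller library.

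Cells were clustered without complement genes, and clusters were named from marker lists. Macrophage/microglia-like cells were 1 cluster of 1878 cells, in which 12 of 13 markers were at least 3-fold above all other cells, including *mpeg1.1*, *mfap4* and *marco* and with the exception of *cd74a*. Fibroblast-like cells were 4 clusters with 6550 cells (11 of 11 markers), and epidermis-like cells were 4 clusters with 4433 cells (13 of 13 markers). Of 10 hepatocyte markers, which had 6116 UMIs over all cells, 7 had 29 to 80 UMIs each, including *fabp10a* (64) and *fgb* (41), whereas *tfa* had 2407, *apoa2* 1940 and *hp* 1393 UMIs. No cluster was named from this list, but with doublets kept a cluster of 226 cells was, led by *lgals2b* and *fabp6*.

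The complement genes were divided among the cell types of the lesion site. All 3 C1q genes were at least 3-fold above all other cells in macrophages in each library, where this held for 8.56% of 15334 genes. *c4b*, *c6.1* and *c6.2* were so in fibroblast-like cells (6.31% of 18239 genes), and *cfd* in epidermis-like cells (8.62% of 18287 genes). The members were chosen with earlier results of these data known, so the shares of all genes given here are a description and no test. *cfb* had a total of 67 UMIs and no class in which it was high. In smooth muscle-like cells, *c6.1*, *c6.2* and *cfd* were also at least 3-fold above all other cells in each library, against 8.74% of 11390 genes. With the libraries summed, smooth muscle-like cells were the highest named class for these genes. They had 102 CPM of *c6.1* and 264 CPM of *c6.2*, compared with 67.4 and 138 CPM in fibroblast-like cells. For *cfd* they had 1669 CPM, compared with 1393 CPM in epidermis-like cells. Because the tissue was dissociated, free RNA can give each cell a few foreign UMIs, and red blood cells, which should lack these genes, serve as the background level. In the 3 libraries they held 0.62 to 1.43 CPM of *c4b*, 2.86 to 6.11 CPM of *cfd* and at most 0.69 CPM of *c6.1* or *c6.2*.

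**Figure D1:**
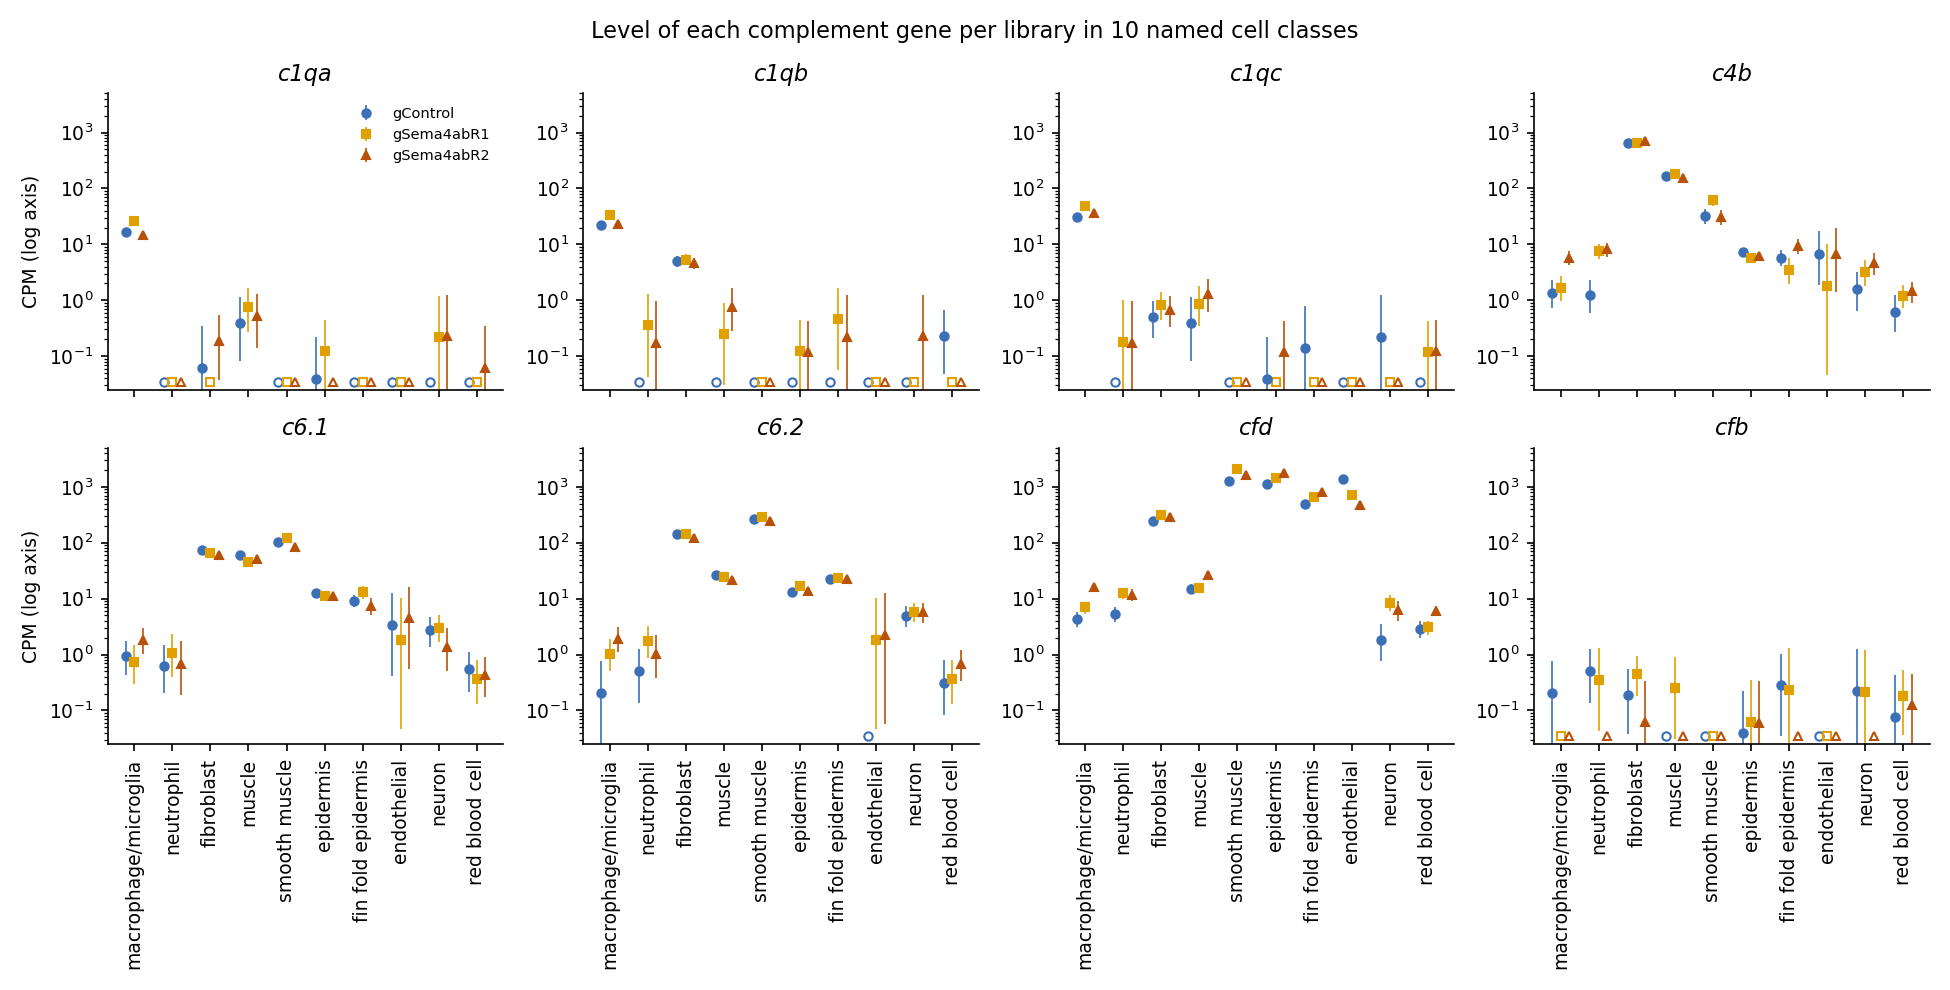
Level of the 8 complement genes in 10 cell classes, in CPM on a log axis. Each point is 1 library with its 95% Poisson interval, and open symbols at the base of the axis stand for 0 UMIs. C1q genes peak in macrophages at 14.9 to 48.2 CPM, *c4b* in fibroblast-like cells at 639 to 698 CPM, while *cfd* passes 1000 CPM in epidermis-like cells of each library.

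The 3 C1q genes are neighbors in the zebrafish genome (RefSeq order in GRCz12tu). In macrophages, the gControl library had 160 UMIs of *c1qa*, gSema4abR1 had 254 and gSema4abR2 had 131, or 16.6 CPM (14.1 to 19.4), 26.5 CPM (23.3 to 29.9) and 14.9 CPM (12.5 to 17.7). *c1qb* was at 22.0, 32.8 and 23.2 CPM, and *c1qc* at 31.4, 48.2 and 37.1 CPM. For each gene, gSema4abR1 was the highest library, and its interval lay above that of gControl. gSema4abR2 overlapped with gControl for each of the 3 genes.

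Macrophages held 92.5% of all *c1qa* UMIs, 90.1% of *c1qc* UMIs, but only 64.1% of *c1qb* UMIs. Summed over the 3 genes, the log2 ratio of gSema4ab to gControl was 0.39 (0.26 to 0.53). It was 0.62 for gSema4abR1 alone and 0.10 (-0.06 to 0.26) for gSema4abR2 alone, and gSema4abR2 was 0.52 lower than gSema4abR1 on the log2 scale. The difference between repeats of the same condition was therefore larger than the difference between conditions. The median log2 ratio of all genes in macrophages was -0.18. Of the 8 rows, none was at least 2-fold below gControl in both repeats, where 3.88% of genes were. Only *c6.2* was at least 2-fold above it, with 2, 10 and 17 UMIs at 0.21 to 1.93 CPM, against 1.6% of genes.

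C1q mRNA was unevenly spread over macrophages. A UMI of any of the 3 genes was found in 28.9% of gControl macrophages (exact binomial interval 25.3 to 32.7%), 34.6% of gSema4abR1 macrophages and 27.8% of gSema4abR2 macrophages. In red blood cells this share was 0.11 to 0.17%, at median depths of 4196 to 5987 UMIs compared with 12559 to 16562 UMIs in macrophages. When each cell was thinned to 2000 UMIs, the shares in macrophages were 8.70, 11.5 and 10.0%. All 3 genes were found together in 24 of 609, 33 of 615 and 19 of 654 macrophages. For *c1qb*, few cells held much of the signal, since the 5 macrophages with most *c1qb* carried 69 of 212, 121 of 315 and 90 of 204 *c1qb* UMIs. This was not measured for *c1qa* and *c1qc*.

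At a finer resolution, the macrophages fell into subset A, led by *havcr1*, *fabp11a* and *apoc1*, subset B, led by *lygl1*, *grn1* and *ccl34a.4*, and the smaller subset C, led by *f13a1b* and *cxcr3.2*. These leading genes are those of the whole finer clusters. For subset C, the finer cluster had 189, 184 and 169 cells, of which only 94, 84 and 85 were in the macrophage class and form the subset. Subset A contained 342, 394 and 403 cells and had summed C1q levels of 108 CPM in gControl, 155 CPM in gSema4abR1 and 86.1 CPM in gSema4abR2. The repeats thus lay on either side of gControl. In subset B, with 170, 129 and 106 cells, the levels were 48.1, 84.1 and 97.0 CPM. Both repeats were above gControl there, with a log2 ratio of 0.90 (0.62 to 1.18). Subset C was lowest, at 19.3, 26.9 and 29.0 CPM.

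*apoeb*, an apolipoprotein gene used as a marker of zebrafish microglia, gave a further division. Macrophages without an *apoeb* UMI had summed C1q levels of 74.0, 115 and 107 CPM, so that both repeats were above gControl (0.59, 0.43 to 0.74). Macrophages with an *apoeb* UMI were at 61.0, 98.4 and 39.5 CPM, and here the repeats diverged by 1.32 on the log2 scale. These subsets differ in depth and were not independent of each other. The split by *apoeb* also differed between libraries, with 192, 288 and 339 macrophages that had a UMI and 417, 327 and 315 that had none. *apoeb* was a leading gene of the fin fold epidermis-like cluster too. Whether UMIs of *apoeb* in macrophages came from free RNA was not tested, so the split need not separate microglia from other macrophages. A group of 58 macrophages that separated at the finer resolution came from gSema4abR2 alone. Cells led by *csf1rb* and *cxcr3.2* in a cluster that was not named had only 6.80, 5.94 and 6.26 CPM of summed C1q.

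**Figure D2:**
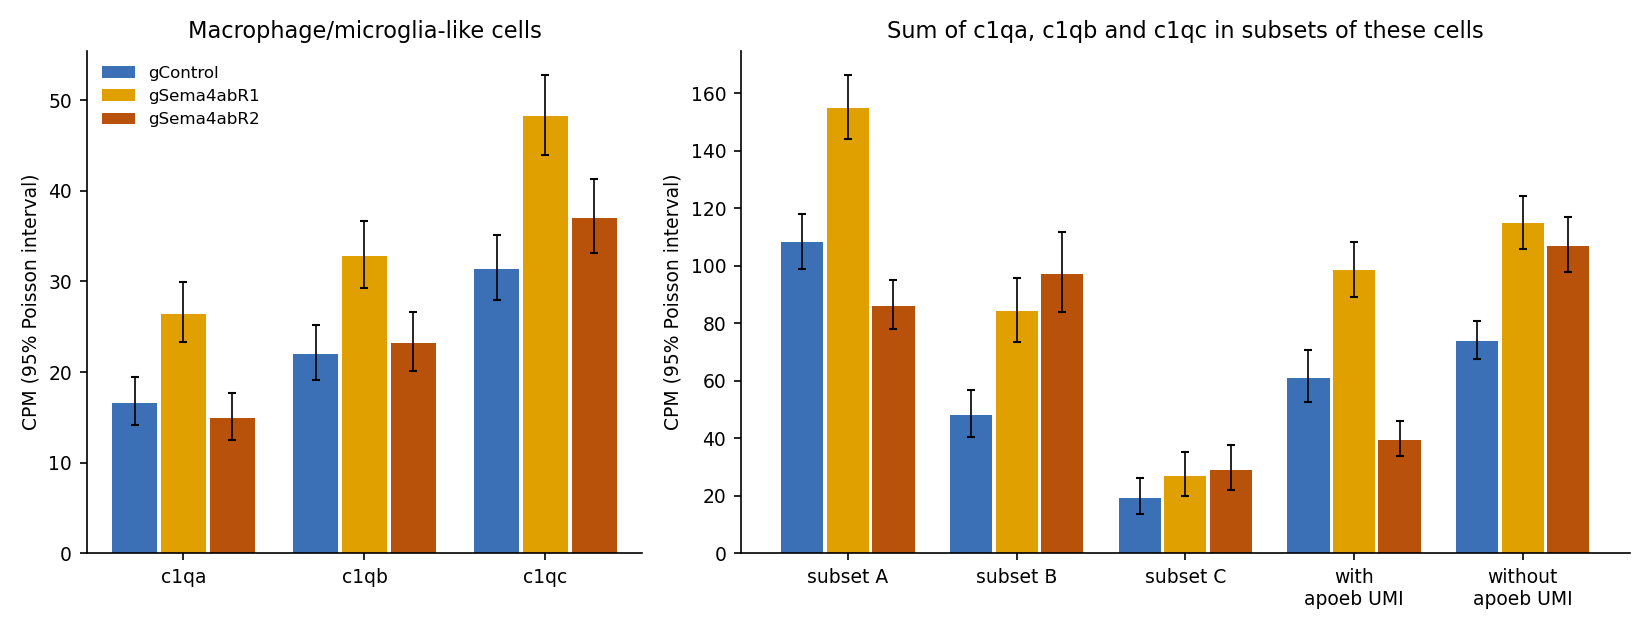
Levels of C1q genes in macrophage/microglia-like cells, in CPM per library with 95% Poisson intervals. The left panel gives each gene in all macrophages, and the right panel the sum of the 3 genes in subsets A, B and C and in cells with or without an *apoeb* UMI. In subset B the levels are 48.1, 84.1 and 97.0 CPM, whereas in subset A gSema4abR2 is lowest at 86.1 CPM.

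*c1qb* was also found outside macrophages. Fibroblast-like cells held 21.0% of its UMIs, mostly in cluster 1, which is described below. This cluster had 67, 50 and 53 UMIs of *c1qb*, or 13.7, 9.85 and 9.87 CPM, in 24 of 603, 23 of 696 and 24 of 677 cells. The 5 cells with most *c1qb* held 40, 23 and 22 of these UMIs. *c1qa* was found in 1, 0 and 1 cells of this cluster and *c1qc* in 4, 6 and 6 cells. In macrophages, by comparison, 54, 81 and 60 cells had *c1qa* and 78, 76 and 61 cells had *c1qb*. Across 45 clusters, *c1qc* and *c1qa* had similar profiles (Pearson r = 0.96, given as a description over clusters that share libraries). The profile of *c1qb* did not have either of them among its 5 closest genes, which were led by si:ch73-158p21.3 (r = 0.89) and included *fgl2a* and *mpeg1.1*. For *c1qa* the closest genes included *havcr2* and *cxcl11.1*.

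*c4b* encodes a thioester protein of the C4 family, which attaches to target surfaces after cleavage. Of its 46520 UMIs, 68.8% were in fibroblast-like cells, with 656 CPM (643 to 669) in gControl, 639 CPM (626 to 651) in gSema4abR1 and 698 CPM (686 to 711) in gSema4abR2. Over the class as a whole, the log2 ratio was 0.03 (-0.005 to 0.06), with gControl between the repeats. This value was made up of opposite differences in the clusters of the class.

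Cluster 1, led by *fgl1*, *fmoda*, *cxcl12a* and *thbs4b*, had the highest level of *c4b* among all clusters. It held 1654 CPM in gControl (1618 to 1691), 1182 CPM in gSema4abR1 (1152 to 1212) and 1218 CPM in gSema4abR2 (1189 to 1248). Both repeats were lower than gControl, by a log2 ratio of -0.46 (-0.50 to -0.42), and they differed from each other by 0.04 only. The median log2 ratio of all genes in this cluster was -0.26, so that part of the *c4b* difference was shared by other genes. The share of cells with a *c4b* UMI was 68.5, 74.1 and 75.6% in gControl, gSema4abR1 and gSema4abR2, and after thinning 59.2, 60.9 and 60.7%. Among the cells with a UMI, the median was 13 UMIs in gControl compared with 7 and 8 in the repeats. The lower level in cluster 1 thus came with a lower median over the positive cells and not with fewer positive cells. These medians were taken without thinning and over positive cells only, so a difference per cell at equal depth was not measured.

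In the other 3 fibroblast-like clusters, both repeats were higher than gControl. Cluster 8, led by *abi3bpb*, *tnn* and *matn4*, had 350, 536 and 686 CPM (log2 ratio 0.82, 0.74 to 0.91). Cluster 10, led by *sost*, *ccl25b* and *aldh1a2*, had 275, 418 and 436 CPM (0.63, 0.51 to 0.75). Cluster 2, led by *cdh11*, *hapln1a* and *ebf3a*, had 88.7, 176 and 147 CPM (0.87, 0.70 to 1.03). In each cluster the distance between the repeats, at most 0.36, was smaller than the ratio to gControl. In cluster 8, the share of cells with a *c4b* UMI was 27.4, 45.9 and 47.7%, or 20.1, 32.5 and 32.3% after thinning. No member was at least 2-fold above or below gControl in both repeats in the fibroblast-like class, where 1.89% of genes were above and 4.35% below.

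Red blood cells held at most 1.43 CPM of *c4b*, and whether free RNA added to these differences was not tested. A difference in the same direction was found in 2 clusters that were not named and were led by *pah*, *tat*, *hpdb* and *ucp1*. These had 350, 567 and 471 CPM (cluster 15) and 138, 296 and 252 CPM (cluster 17), with ratios of 0.58 and 0.99. Cluster 15 passed 7 fibroblast markers and cluster 17 passed 5. Cells led by *ucp1* and *pah* were named fibroblast-like at a lower resolution, without integration and with doublets kept. The ratio of *c4b* over the fibroblast-like class given above leaves clusters 15 and 17 out. Muscle precursors with *pax7a* and *myf5* (cluster 14) had 360, 344 and 331 CPM, a difference of -0.09 (-0.20 to 0.01). Neutrophil-like cells had 10, 43 and 47 UMIs of *c4b*, which were in 9 cells of each library. *fmoda*, *twist1a* and *ccdc80l2* had the profiles closest to *c4b* across the 45 clusters (r = 0.92, 0.91 and 0.91).

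**Figure D3:**
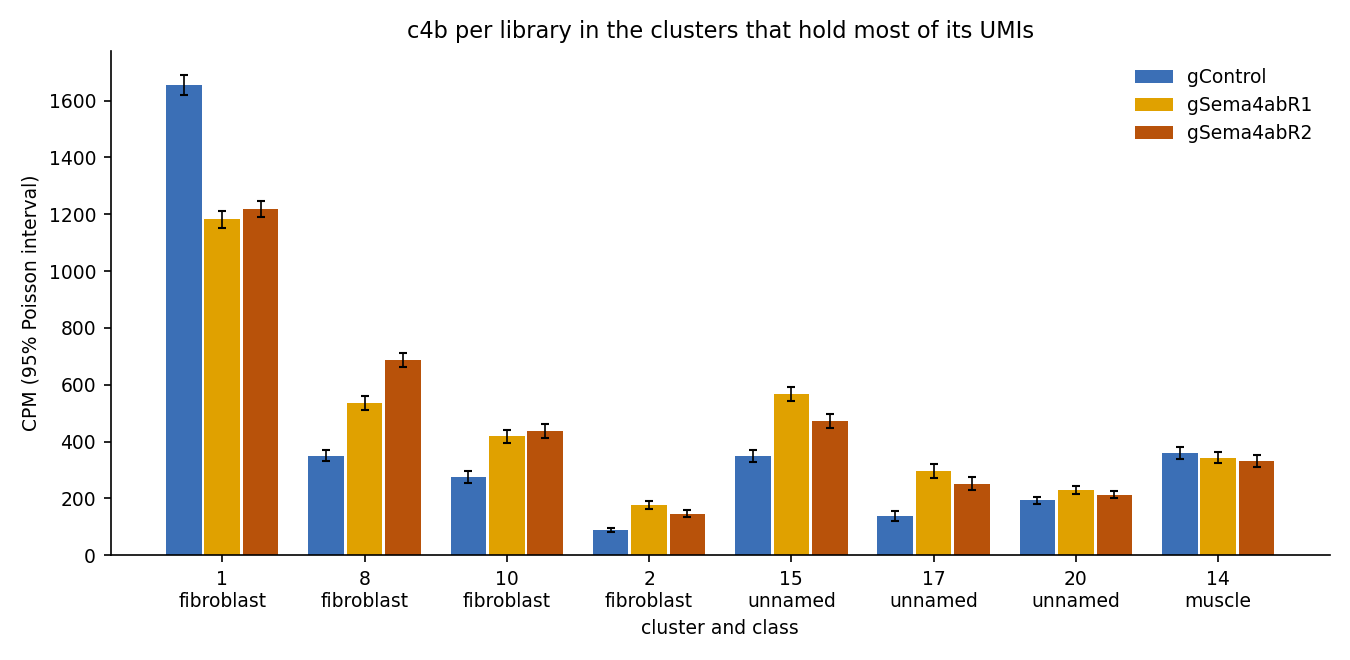
Level of *c4b* per library in the 8 clusters that hold most of its UMIs, in CPM with 95% Poisson intervals. In cluster 1 both gSema4ab bars (1182 and 1218 CPM) are below gControl (1654 CPM), and in clusters 8, 10, 2, 15 and 17 both are above it.

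At a finer resolution, an alternative chosen after these values had been seen, the directions held in some parts of the clusters and not in others. The main part of cluster 1, with 457, 520 and 498 cells, had 1862, 1317 and 1335 CPM of *c4b* (-0.49, -0.53 to -0.45). Its smaller part, with 146, 172 and 175 cells, had 519, 492 and 582 CPM (0.05, -0.12 to 0.23), so that the lower level was found in the main part only. Both parts of cluster 8 were higher in the repeats, from 444 CPM to 717 and 888 CPM, and from 184 CPM to 250 and 360 CPM. The parts of cluster 10 had 210, 418 and 447 CPM (1.04, 0.86 to 1.22) and 371, 411 and 421 CPM (0.16, -0.01 to 0.34), and the interval of the latter includes 0. Both parts of cluster 2 were higher in the repeats, from 89.7 CPM to 139 and 120.2 CPM, and from 65.4 CPM to 251 and 203 CPM. A split of the class by *fmoda* UMIs could not stand in for the clusters. Cells with such a UMI were most of the 2153, 2213 and 2184 cells of the class, so their ratio had to lie near that of the class. The 1693, 1722 and 1756 fibroblast-like cells with a *fmoda* UMI had 739, 705 and 774 CPM (0.0035, -0.03 to 0.04), and the 460, 491 and 428 cells without one had 194, 280 and 233 CPM (0.41, 0.25 to 0.56).

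C6 joins C5b and C7 at a target membrane. The reads of *c6.1* and *c6.2* come from paralogs with a shared symbol, so that an error in the assignment of reads between them was not tested. In fibroblast-like cells, *c6.1* was at 75.1 CPM in gControl, 66.6 CPM in gSema4abR1 and 60.5 CPM in gSema4abR2 (-0.24, -0.35 to -0.14). *c6.2* was at 144, 145 and 124 CPM (-0.10, -0.18 to -0.03), with gSema4abR1 level with gControl. The median log2 ratio of all genes in this class was -0.22, so that *c6.1* was close to it and *c6.2* above it. With TMM scaling, which removes most of this shift, the ratios were -0.015 for *c6.1* and 0.12 for *c6.2*.

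The genes differed in their sites of expression. *c6.2* was concentrated in the *sost* and *aldh1a2* cells of cluster 10, at 577, 504 and 487 CPM, where a UMI was found in 69.2 to 77.3% of the cells. This cluster held 37.8% of its UMIs. It was also high in cells led by *podxl*, *aqp1a.1* and *jam2b* (cluster 24, not named), at 510, 439 and 453 CPM. *c6.1* was spread more evenly, with 99.0, 92.9 and 100.2 CPM in cluster 10, 128, 102 and 101 CPM in cluster 24 and 134, 94.5 and 85.9 CPM in cluster 1. In cluster 8, *c6.2* was at 2.09 to 7.01 CPM, above the level in red blood cells, compared with 22.6 to 30.5 CPM for *c6.1*. In smooth muscle-like cells, *c6.2* was at 268, 284 and 242 CPM and *c6.1* at 101, 124 and 82.3 CPM, with gControl between the repeats for both genes.

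In cluster 1, both genes were lower in both repeats, as was *c4b*. The log2 ratio was -0.57 (-0.72 to -0.43) for *c6.1* and -0.64 (-0.80 to -0.48) for *c6.2*, which had 113, 74.0 and 71.2 CPM there. The median over all genes of this cluster was -0.26. In cluster 2, *c6.2* was higher in both repeats, at 47.1, 63.2 and 62.1 CPM (0.41, 0.18 to 0.65), whereas *c6.1* differed by 0.01. The profiles of the genes across the 45 clusters resembled each other (r = 0.85). The closest profile to *c6.2* was that of *rspo1*, and *boc* followed *c6.2* in the list of *c6.1*.

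**Figure D4:**
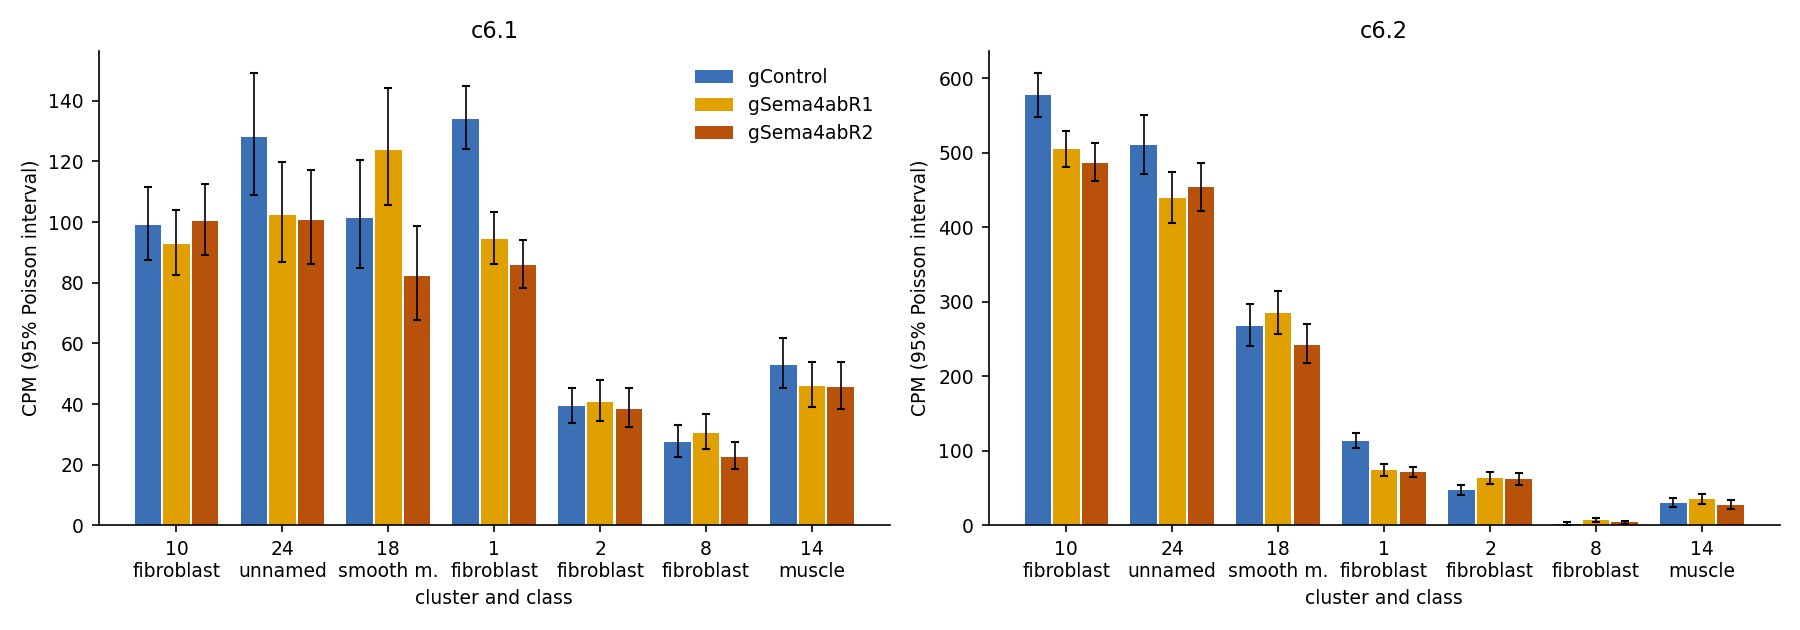
Level of *c6.1* (left) and *c6.2* (right) per library in 7 clusters, in CPM with 95% Poisson intervals; the panels have different scales. *c6.2* is highest in clusters 10 and 24 at 439 to 577 CPM, whereas *c6.1* stays between 22.6 and 134 CPM in these 7 clusters.

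Factor D is the serine protease that starts the amplification loop of the alternative pathway, and mammals express it strongly in fat. It had the most UMIs of all members, with 41684, 40324 and 47375 in the libraries. Epidermis-like cells held 62.7% of them, at 1105 CPM (1092 to 1118), 1422 CPM (1403 to 1440) and 1801 CPM (1781 to 1822), a log2 ratio of 0.55 (0.53 to 0.57). The repeats differed by 0.34. *cfd* was not at least 2-fold above gControl in both repeats, where 4.48% of genes were (4.81% below).

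Nearly all *cfd* of the epidermis was in basal cells. Cluster 9, led by *krt91*, *col17a1a* and *krtt1c19e*, had 2873, 3270 and 3672 CPM and 59.8% of all *cfd* UMIs, and a UMI was found in 482 of 531, 353 of 386 and 397 of 418 cells. In the superficial cells of cluster 7, led by *icn2* and *krt17*, the levels were 5.09, 16.9 and 4.05 CPM, and in cluster 6, led by *irg1l*, 17.9, 7.69 and 40.3 CPM. A small cluster of dividing basal cells with *top2a* (12, 28 and 23 cells) had 2088, 1164 and 3190 CPM, with the repeats on either side of gControl.

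The mix of epidermal cells differed between the libraries, with 809, 351 and 337 superficial cells in cluster 7. Cluster 9 made up 37.4% of the UMIs of the class in gControl, compared with 41.9 and 45.7% in the repeats. In cluster 9 alone, the log2 ratio was 0.28 (0.26 to 0.30), with 0.19 for gSema4abR1 and 0.35 for gSema4abR2. It was also 0.27 for the class when its clusters were weighted as in gControl, a calculation added after the data had been seen. The remaining difference between the class and cluster 9 went with the composition of the class. The fin fold epidermis, led by *and1* and *and3*, had 493, 650 and 802 CPM (0.56, 0.50 to 0.62).

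*cfd* was also high in mesenchymal and vascular cells. Cluster 24 (*podxl*, *aqp1a.1*) had 2066, 2790 and 2410 CPM, smooth muscle-like cells had 1256, 2121 and 1614 CPM, and both repeats were above gControl in each. Cluster 10 of the fibroblast-like cells was at 1025, 1050 and 1079 CPM, a difference of 0.05 (-0.01 to 0.12). In the endothelial-like cells, the direction was opposite, with 1389, 722 and 470 CPM (-1.19, -1.34 to -1.03) in 71, 62 and 51 cells. Macrophages had 4.26, 6.98 and 16.1 CPM and neutrophils 5.37, 12.5 and 11.6 CPM, compared with 2.86, 3.05 and 6.11 CPM in red blood cells, so that they were above this level in each library but far below the clusters named before. Across the 45 clusters, *trim69* had the profile closest to *cfd* (r = 0.88), before *ftr85* and *vipr1a*.

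**Figure D5:**
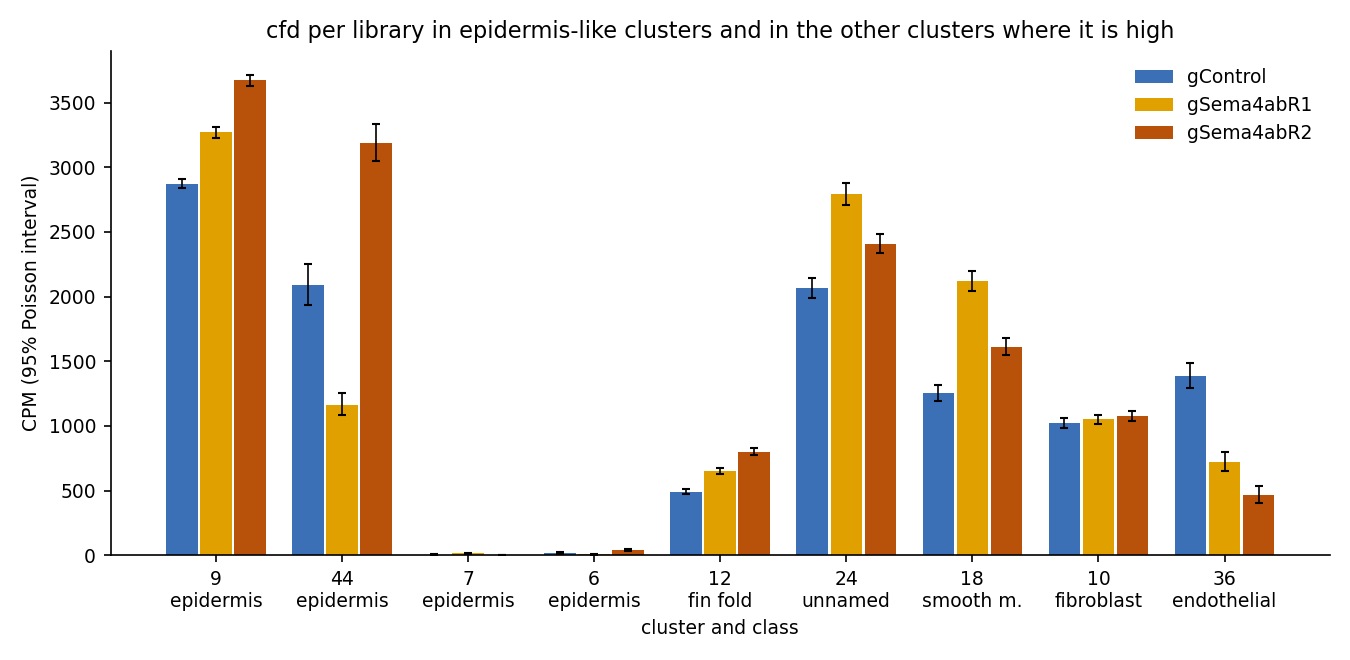
Level of *cfd* per library in the 4 epidermis-like clusters and in 5 other clusters, in CPM with 95% Poisson intervals. Basal cluster 9 is at 2873, 3270 and 3672 CPM, while superficial cluster 7 stays at or below 16.9 CPM; the endothelial-like cluster 36 has the opposite order of libraries.

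Factor B supplies the protease part of the alternative pathway convertase. Over all cells, the 3 libraries had 20, 28 and 19 UMIs of *cfb*, or 0.16, 0.25 and 0.17 CPM, and the libraries overlapped. Of these, 14 were in cluster 38, which was not named and was led by *fabp6* and *lgals2b*. It had 3, 2 and 9 UMIs of *cfb* in 37, 26 and 103 cells. A difference between conditions was not detectable at this depth. A paralog in the same region, *cfbl*, had 12612 UMIs. It was highest in neutrophil-like cells, at 455, 438 and 392 CPM, and reached 1314, 1092 and 1049 CPM in the neutrophils of cluster 22, led by *mmp9* and *il1b*. Macrophages had 172, 120 and 98.9 CPM of *cfbl* (-0.65, -0.74 to -0.55). Whether reads of *cfb* and *cfbl* were assigned to the right gene was not tested.

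A list of 66 complement symbols matched 51 rows, of which 43 were not members. Of these 43, 22 were at least 3-fold above all other cells in a named class, 7 were below this limit, and 14 had fewer than 20 UMIs in every named class. This rule took the highest of all named classes with the libraries summed, and was thus easier to pass than that used for the members. The share of all genes that pass it was not determined, so the count does not set complement genes apart from other genes. The 22 were highest in fibroblast-like cells (5 genes), neutrophils (5), endothelial, epidermis-like, ionocyte-like and neuron-like cells (2 each) and 4 further classes (1 each). Those not described below were *c1s* in fibroblast-like cells, *hbl2* and *rca2.2* in endothelial-like cells, *c1r* and *c8g* in epidermis-like cells, *mbl2* and *rca2.1* in ionocyte-like cells, *c4* and *c8b* in neuron-like cells, *masp1* in cells with markers of ependymo-radial glia and *clu* in notochord-like cells. With the libraries summed, their levels in these classes ran from 0.86 CPM for *c1r* to 924 CPM for *clu*. *c1s* at 1.27 CPM and *c8b* at 1.93 CPM, with 26 UMIs, were also close to the floor. *c7b* was highest in a neural crest glia-like cluster of 16, 33 and 36 cells, at 6.95, 498 and 300 CPM, with 1, 116 and 88 UMIs. All other cells had 8.17 CPM with the libraries summed, so that this placement came from the gSema4ab libraries only. Among the 14 were *c5*, *c8a*, *c9* and *serping1*, which in mammals come mostly from the liver.

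The thioester and terminal genes of the fibroblast-like cells were *c3a.1*, *c3a.3* and *c7a*. Of these, *c3a.3* had only 28 UMIs in the class (2, 21 and 5 in the libraries), or 0.58 CPM. *c3a.1*, a C3 gene, had 52.5, 30.5 and 40.1 CPM in cluster 1 (-0.57, -0.80 to -0.33), but 13.3, 57.7 and 53.8 CPM in cluster 8 (2.06, 1.64 to 2.50) and 24, 114 and 72 UMIs in cluster 10 (1.75, 1.13 to 2.43). It was thus lower in cluster 1 and higher in clusters 8 and 10 in both repeats, as was *c4b*. *c7a*, which follows C6 in the membrane attack complex, was lower in both repeats in each of the 4 fibroblast-like clusters, from 151, 117 and 111 CPM in cluster 1 to 211, 119 and 114 CPM in cluster 10. *c7b*, the other C7 gene, had the opposite direction in the same 4 clusters at lower levels. It had 20, 127 and 65 UMIs in cluster 1, a log2 ratio of 2.16, and the ratio was 2.05 in cluster 2, 1.02 in cluster 8 and 2.14 in cluster 10. Whether reads of *c7a* and *c7b* were assigned to the right gene was not tested. *c7a* was lower in basal epidermis as well, at 185, 113 and 98.6 CPM (-0.81, -0.91 to -0.71), where *cfd* was higher. *colec12*, a scavenger receptor with a collectin domain, had 451, 360 and 338 CPM in the fibroblast-like class.

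Genes of the phagocytes included regulators and receptors. *cfp*, which encodes properdin, the stabilizer of the alternative convertase, was at 115, 116 and 112 CPM in macrophages and was the only other listed gene that was highest there by this rule. It was not particular to phagocytes. Fibroblast-like cluster 1 had 102, 117 and 114 CPM of *cfp* and cluster 8 had 105, 118 and 114 CPM. Neutrophils had 9.47 CPM with the libraries summed. *cfh*, the gene of factor H, which limits the alternative pathway, was at 132, 61.4 and 53.6 CPM in neutrophils (-1.20) and at 21.2, 9.90 and 9.09 CPM in macrophages (-1.16, -1.46 to -0.86). The subunits of complement receptor 3 were lower in both repeats too. *itgam* was at 104, 49.3 and 44.7 CPM and *itgb2* at 434, 336 and 317 CPM in neutrophils, and in macrophages they were at 37.7, 20.1 and 18.9 CPM and at 211, 152 and 143 CPM. In neutrophils, 1.9% of 13612 genes were at least 2-fold above gControl in both repeats and 3.45% were at least 2-fold below it, and of the 5 listed genes of neutrophils, *cfh*, *itgam* and *cfhl1* (6.11, 2.85 and 2.59 CPM) were among the latter, while *itgb2* and *cfbl* were not. The neutrophils consisted of 243, 166 and 214 cells in cluster 21 and 214, 211 and 188 cells in cluster 22. In cluster 22 alone, the log2 ratio was -0.54 for *cfh* (-0.97 to -0.11; 84, 55 and 45 UMIs) and -1.13 for *itgam* (-1.35 to -0.91; 388, 155 and 152 UMIs).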

How the data were processed

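Cell Ranger 7.1.0 was run by the authors on GRCz11 and an Ensembl annotation. Their deposited matrices give counts of UMIs for each barcode and gene in 10x Genomics 3′ libraries, without normalization, for the barcodes called as cells (14398 in gControl, 14384 in gSema4abR1, 14163 in gSema4abR2, with 152455137, 140055125 and 139165621 UMIs). Reads of paralogs may have been split between genes in this counting, and neither cell labels nor reads were used.

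A barcode was kept when it had more than 500 and fewer than 50000 UMIs and 200 or more genes, with mitochondrial genes under 20% and no more than 20 UMIs for each gene found. These limits follow the methods of the study, where the last one is worded as a ratio above 20 and was read here as a reason for removal. Doublets were scored with Scrublet (scanpy 1.11.5), where the study used another tool, and the highest scores were removed at 0.8% of a library per 1000 barcodes, which took 1526 to 1594 barcodes per library. Clustering used R 4.3.3 and Seurat 5.3.0 (2000 variable genes, CCA integration, 30 dimensions, resolution 1) after the 12 complement genes among the variable genes had been left out. Names and shares can therefore differ from those of the study. A cluster received the name of a class when at least 3 of its markers were found in at least 10% of the cells and were at least 3-fold above the other cells. With fewer than 6 markers, 1 of them had to be among the 10 leading genes, and macrophages had to have *mpeg1.1* or *mfap4*; these rules were added once a first clustering was known. A name was also withheld when another list had more genes among the 10 leading genes. The same held for a cluster of low depth with none of its markers among them. Clusters that passed many markers could thus stay unnamed, such as cluster 15 with 7 fibroblast markers. In all, 17 clusters with 24.4% of the cells stayed unnamed.

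Genes with at least 20 UMIs in a class entered the counts of genes past a fold, with 0.5 UMIs added to each count for ratios between conditions. Shares were repeated after each cell was thinned to 2000 UMIs, which left out 1442, 1688 and 1733 shallower cells. Likeness is Pearson's r of log2(CPM + 10) over clusters with at least 50 cells, among genes with at least 500 UMIs. TMM factors came from edgeR 4.0.16. Intervals used scipy 1.17.1, and they and the calls were run on simulated counts with known folds. Those counts held counting error only, as the intervals assume, so the simulation checks the code and not the spread between cells or libraries. The members and gene lists were chosen with earlier results of these data known. No tests or p-values were computed, since there was 1 gControl library and the gSema4ab libraries were technical repeats. Alternatives are given in the closing section.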

Additional observations from a re-analysis of the deposited data

Results flagged for a closer look

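The difference between gSema4ab and gControl went in opposite directions in different groups of cells for 3 complement genes. In each group given, both repeats were on the same side of gControl. The groups were picked from these data as those with the highest and the lowest such ratio, among named classes or fibroblast-like clusters. The distances below are therefore the largest ones found by this rule and not typical values. Only the members were searched in this way. The share of all genes with opposite directions by the same rule was not determined, so the count of 3 does not set complement genes apart. These differences between groups were not tested, because there was 1 gControl library. For *c4b*, the log2 ratio was 0.87 in fibroblast-like cluster 2 and -0.46 in cluster 1, a distance of 1.33. *c3a.1* had the same directions in clusters 1, 8 and 10. For *c6.2*, the log2 ratio was 0.41 in cluster 2 and -0.64 in cluster 1, a distance of 1.06. The TMM factors shift all ratios, those of *c4b* included, by 0.13 in cluster 2 and 0.26 in cluster 1. For *cfd*, it was 1.42 in macrophages and -1.19 in endothelial-like cells, a distance of 2.60. The macrophages had 41, 67 and 142 UMIs of *cfd*, at 4.26 to 16.1 CPM compared with 2.86 to 6.11 CPM in red blood cells. Both levels were lowest in gControl and highest in gSema4abR2. Whether free RNA added to the difference in macrophages was not tested.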

How the results depend on the processing

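The number of libraries limits these data, since there was 1 gControl library, and so does depth for genes with few UMIs such as *cfb*. No paired analysis was possible because gControl was a single library, which shares no replicate numbers with gSema4ab beyond 1. Under every alternative, each gene stayed higher in the class looked at than in all other cells. This was compared for C1q in macrophages, *c4b*, *c6.1* and *c6.2* in fibroblast-like cells and *cfd* in epidermis-like cells. The log2 ratios to all other cells were at least 2.13. Smooth muscle-like cells, where *c6.1*, *c6.2* and *cfd* were higher, were not compared in this way. The cause of the shifts below was not tested. For *c4b* (3.79), this ratio was 5.33 at resolution 0.5, 3.97 at resolution 2, 4.90 without integration, 3.84 with doublets kept and 5.30 with classes from the marker UMIs of each cell. For *c6.2* (2.92), it was 2.39, 2.54, 2.50, 2.43 and 3.33 in the same order, and 3.13 without mixed-marker cells. For *cfd* (3.08), it was 2.94 at resolution 0.5, 3.10 at resolution 2, 2.71 with doublets kept, 2.96 with classes per cell and 3.19 without mixed-marker cells. For *c6.1* (2.32), it was 2.13 with doublets kept, 2.56 with classes per cell and 2.43 without mixed-marker cells, and for C1q (5.57) 5.42 with doublets kept.

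The ratio of gSema4ab to gControl was more sensitive. For *c4b* in fibroblast-like cells (0.03) it was 0.096 at resolution 0.5, -0.038 at resolution 2, 0.099 without integration, 0.089 with doublets kept, 0.12 with classes per cell and 0.26 with TMM scaling. At resolution 0.5, without integration and with doublets kept, the class also held cells led by *ucp1* and *pah*. Whether these cells moved the ratio was not tested. For *cfd* in epidermis-like cells (0.55) it was 0.57 with doublets kept, 0.46 with classes per cell and 0.27 with clusters weighted as in gControl. TMM scaling shifted the ratios by 0.23 in fibroblast-like cells, 0.21 in macrophages and 0.0037 in epidermis-like cells, and gave 0.61 for C1q, -0.015 for *c6.1* and 0.12 for *c6.2*, the last with a change of sign from -0.10. In clusters 1, 8, 10 and 2, *c4b* kept its direction with TMM scaling (-0.20, 1.03, 0.82 and 1.00). With cells that had a *fmoda* UMI in place of cluster 1, an alternative added after the data were seen, the ratio was 0.0035. Those cells were most of the fibroblast-like class, so this alternative does not bear on cluster 1. Without either gSema4ab repeat, the ratio ranged from 0.10 to 0.62 for C1q, from -0.038 to 0.090 for *c4b*, from -0.31 to -0.17 for *c6.1*, from -0.22 to 0.0090 for *c6.2* and from 0.36 to 0.70 for *cfd*. After thinning to 2000 UMIs, the share of cells with a UMI was 10.1% instead of 30.4% for C1q in macrophages, 34.5% instead of 44.9% for *c4b* in fibroblast-like cells and 27.1% instead of 32.5% for *cfd* in epidermis-like cells. Of the other complement genes, 21 instead of 22 were at least 3-fold above all other cells at resolution 2.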
